A study of Mus musculus with 3 samples.

Results

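HBO1 (Kat7) ChIP-seq peaks just downstream of protein-coding gene starts were examined in Oct1 deficient mouse ESCs. A peak was included when its summit, the position of strongest signal, lay 1 to 1000 bp downstream of the nearest coding transcription start site (TSS) and no coding TSS lay inside it. By this rule 2221 of the 13823 peaks in the list were downstream peaks, 17.6% of the 12637 peaks that could be classed. They lay at 2191 TSSs of 2156 genes, 10.4% of the 20746 coding genes on the autosomes. Of the other classed peaks, 1816 contained a coding TSS, 275 had a summit 1 to 1000 bp upstream of one, and 8325 were elsewhere. Not classed, by the rule, were 435 peaks on X and Y and 751 on chromosome 3 from 100 to 141 Mb.

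The cells lack Oct1, the paralog of Oct4 that Pou2f1 encodes. They were grown with 3 µM CHIR99021, an inhibitor of GSK3, and 1 µM of a MEK inhibitor that the labels spell PD03259010, with ascorbic acid, and were fixed with 1% formaldehyde. The series holds 2 samples of HBO1 ChIP and 1 of input, all of this genotype and culture, so there was no second condition to compare. An antibody label of the second ChIP sample reads HBO2 where its title reads HBO1. The single peak list is taken as that of both ChIP samples, and how they were combined into it is not given in the sources used here, so no value here has a spread between replicates, peaks are not replicates, and no test between groups was run. The input file held 31973678 aligned read ends. Intervals given below are 95% intervals of counting error only.

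HBO1 is the catalytic subunit of a MYST family histone acetyltransferase complex, in which Jade or Brpf proteins act as scaffolds and Ing proteins read methylated histone H3. The complex acetylates histones H3 and H4 at active genes and near replication origins. At an active mammalian gene the TSS itself is depleted of nucleosomes, the first well placed nucleosome lies just downstream, and the first exon often ends within a CpG island, a stretch of unmethylated DNA rich in C, G and CpG dinucleotides.

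The base composition of these peaks is seen most directly in sequence. The windows below are 100 bases around the summits of the intronic peaks with the highest −log10 q that touch no UTR on either side of the TSS, each with the window at the same distance upstream of the same TSS. All are from GRCm38, 5′ to 3′ on the strand of the gene, with each CpG in capitals. Banp encodes a nuclear protein that binds unmethylated CGCG elements, Noc2l a nucleolar protein and Cdkn1a the cell cycle inhibitor p21.
Banp summit, chr8:121950870-121950969: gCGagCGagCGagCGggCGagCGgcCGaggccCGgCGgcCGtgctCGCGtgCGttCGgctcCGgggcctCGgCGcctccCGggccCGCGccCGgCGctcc
Banp upstream, chr8:121950240-121950339: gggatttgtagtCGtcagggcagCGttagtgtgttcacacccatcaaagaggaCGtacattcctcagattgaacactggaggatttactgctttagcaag
Noc2l summit, chr4:156236763-156236862: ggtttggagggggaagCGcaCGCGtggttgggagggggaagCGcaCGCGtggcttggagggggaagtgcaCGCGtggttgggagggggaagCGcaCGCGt
Noc2l upstream, chr4:156235239-156235338: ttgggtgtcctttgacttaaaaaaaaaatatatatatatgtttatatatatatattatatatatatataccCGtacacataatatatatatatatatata
Cdkn1a summit, chr17:29094712-29094811: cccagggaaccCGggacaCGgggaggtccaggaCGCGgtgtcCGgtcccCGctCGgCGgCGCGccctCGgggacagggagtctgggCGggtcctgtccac
Cdkn1a upstream, chr17:29092750-29092849: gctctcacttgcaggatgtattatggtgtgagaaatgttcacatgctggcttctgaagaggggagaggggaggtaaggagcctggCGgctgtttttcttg

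The Banp window held 22 CpGs at its summit and 3 upstream, with a GC content of 86% against 47%. At Noc2l the counts were 11 and 1, and the summit window is made of near copies of a short stretch. At Cdkn1a they were 12 and 1. These windows were picked for their −log10 q, and the composition of all members is given below.

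Most summits lay in the first part of the gene, a short way past the TSS. Over the 2221 peaks the summit was at a median of 274 bp from the TSS (interval 267 to 281), with quartiles of 205 and 406 bp. Between 201 and 400 bp there were 1147 summits, against 508 from 1 to 200 bp and 566 from 401 to 1000 bp. The fullest 50 bp ran from 201 to 250 bp and held 446 summits, 20.1% of the total. Few summits could fall beside the TSS by the rule itself, since a peak there would usually contain it. With the TSS-containing and upstream peaks added, the fullest 50 bp was still that from 200 to 249 bp, with 592 summits. The near edge of the peak was closer, at a median of 103 bp from the TSS (98 to 110), and within 100 bp for 49.03% of peaks. The plus and minus strands held 1118 and 1103 of them.

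The downstream side was the usual side. Of the peaks beside a coding TSS, 88.98% were downstream (87.7 to 90.2%), 2221 against 275. Among the peaks that contained a TSS, 69.8% had their summit downstream of it (67.6 to 71.9%). Over all 3 classes, 1939 summits lay 101 to 300 bp downstream and 273 over the same span upstream. Of the 2156 genes with a downstream peak, 119 also had a TSS-containing peak, 5.52% (4.59 to 6.57%), against 1758 of all coding genes, 8.47%. The rule puts each peak in a single class, which by itself can lower the first share, and all coding genes include these 2156. An upstream peak was also found at 65 of the 2156 genes, 3.01% (2.33 to 3.83%), against 271 of all coding genes, 1.31%. The nearest TSS was the outermost coding TSS of the gene for 1118 peaks, 50.4% (48.3 to 52.5%), and lay over 1000 bp inside it for 246. Peaks were spread over all autosomes. The share of coding genes with a downstream peak ran from 6.29% on chromosome 3, part of which was left out, and 7.01% on chromosome 7, to 12.6% on chromosome 4 and 12.8% on chromosome 12.

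**Figure D1:**
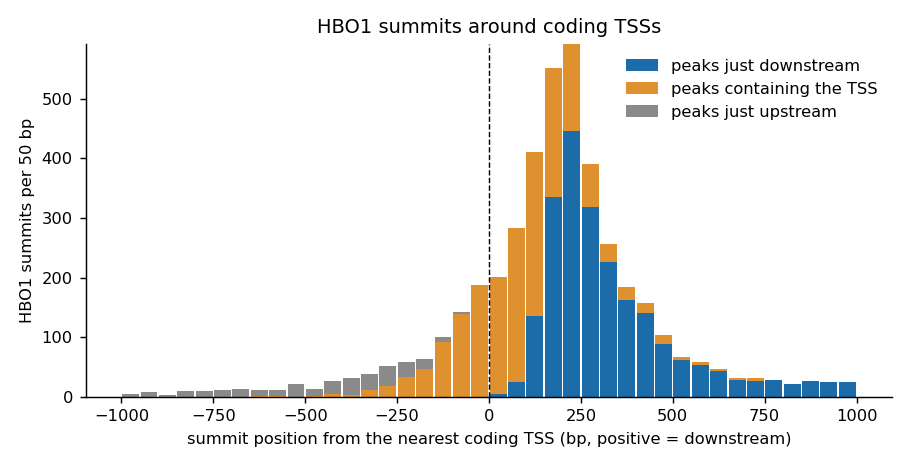
HBO1 summits per 50 bp (vertical axis) by position from the nearest coding TSS in bp (horizontal axis, positive downstream), stacked for the 2221 downstream peaks, the 1816 peaks that contain a TSS and the 275 upstream peaks. The tallest column lies from 200 to 249 bp downstream and holds 592 summits, 446 of them of downstream peaks.

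The peaks nearest the limits of the rule show how much it decides. The farthest summits inside it were at Ppp1r37 and Cops6, both 998 bp from the TSS, with a fold enrichment of 1.97 and 4.45. The nearest outside it were at Sqstm1, at 1004 bp, and Ubb, at 1006 bp, with 5.47 and 5.74. At the other end, summits lay 14 bp from the TSS at Dact1 and 15 bp at Cmtr1, in weak peaks of −log10 q 2.55 and 2.53. The peak at Mtif3 began 1 bp beyond the TSS, and that at Atp2c1, with a TSS in its last base, counted as containing it.

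Summits fell in introns and exons alike. Placed over all transcripts, 922 lay in introns, 41.5% (39.5 to 43.6%), 670 in coding sequence (30.2%), 449 in 5′ UTRs (20.2%), 172 in other exons and 8 in 3′ UTRs. Among TSS-containing peaks, 40.97% of summits lay in 5′ UTRs and 29.1% in introns. In the transcript of the nearest TSS alone, 44.3% of downstream summits lay in the first exon and 50.2% in the first intron. The summit was at or beyond the position of the start codon for 58.6% of peaks (56.5 to 60.7%).

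The end of the first exon was close by in many genes. For the 2118 peaks at transcripts with several exons, the summit lay at a median of 42 bp past that end (30 to 52), and 65.96% lay within 200 bp of it. By length of the first exon, the distances below are a description, since the rule limits them to 1 to 1000 bp. Where the first exon was at most 100 bp long, the median summit distance was 256 bp (245 to 274, 385 peaks), and at 201 to 400 bp it was 258 bp (247 to 275, 664 peaks). It was greater only at longer first exons, 339 bp at 401 to 800 bp (318 to 356) and 468 bp above that (406 to 545). Across the 2118 peaks, Spearman's rho between first exon length and summit distance was 0.20, also a description.

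**Figure D2:**
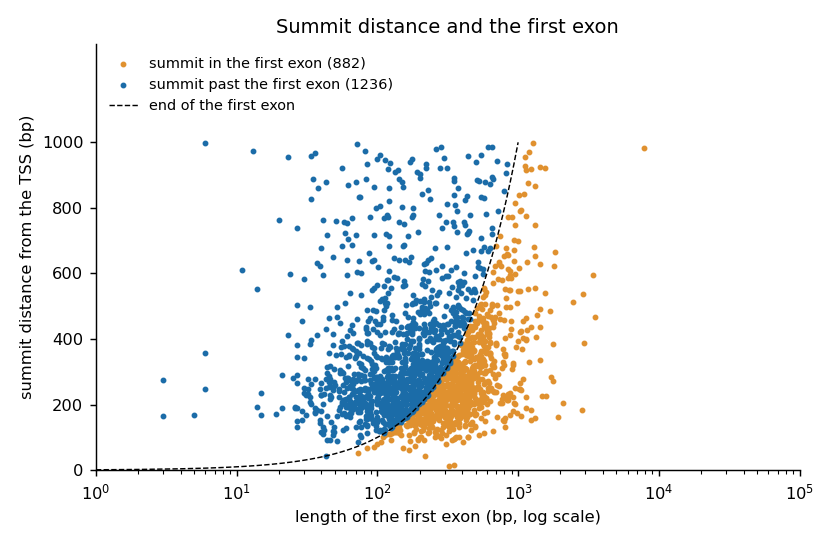
Summit distance from the TSS in bp against the length of the first exon in bp (log scale), for the 2118 peaks at transcripts with several exons. The dashed line marks the end of the first exon, and 1236 summits lie past it and 882 inside the exon.

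Downstream peaks were of modest strength. The authors' fold enrichment over local background had a median of 2.47 (2.44 to 2.50) and ran from 1.63 to 18.99. Their −log10 q had a median of 7.44 (7.23 to 7.66) and ran from 2.30, the authors' threshold, to 133. Peaks with a −log10 q of 10 or more numbered 656, those with 20 or more 147, and those with 50 or more 15. Peak width had a median of 417 bp (408 to 426), up to 2018 bp. TSS-containing peaks had a median fold of 2.67 (2.63 to 2.70), −log10 q of 9.21 and width of 514 bp, where a wider peak is also more likely to contain a TSS. Upstream peaks had a median fold of 2.72 and −log10 q of 6.82. The median fold of downstream peaks was thus 0.925 times that of TSS-containing peaks (0.903 to 0.9502). Within classes of equal input the ratio ran from 0.918 to 1.03, the highest where the 1 kb around the summit held under 30 input read ends.

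The fold enrichment moved with the input. The 1 kb around the summit held a median of 89 input read ends. In the class with under 30, downstream peaks had a median fold of 4.72 (4.39 to 4.98, 182 peaks), and in that with 120 or more it was 2.21 (2.15 to 2.27, 275 peaks). The median −log10 q in these classes was 7.26 and 7.49. Across the 2221 peaks Spearman's rho with the input was −0.48 for the fold and −0.01 for the −log10 q. A ranking by fold therefore favors sites with little input. The fold is a ratio to local background and every peak passed a q limit, so part of this relation can be set by construction. How large that part is was not tested.

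**Figure D3:**
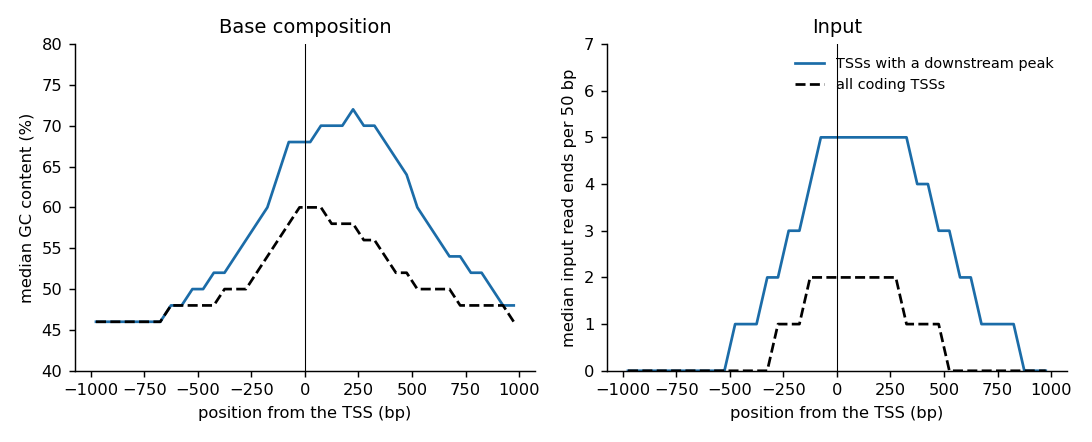
Median GC content in percent (left) and median input read ends per 50 bp (right) by position from the TSS in bp, for the 2191 TSSs with a downstream peak (solid) and all 52101 coding TSSs (dashed). At TSSs with a downstream peak GC content is highest, 72%, from 200 to 249 bp downstream, while input holds at 5 read ends from 100 bp upstream to 349 bp downstream.

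Summit windows were rich in GC and CpG. In the 200 bp around the summit the median GC content was 72.5% (72.0 to 72.5%), with 23 CpGs, against 55.5% and 9 CpGs in the window at the same distance upstream. Windows of TSS-containing peaks had 73.0% and 24 CpGs, and those of upstream peaks 65% and 16. At 274 bp downstream of all coding TSSs the median was 56.0% with 7 CpGs. The ratio of observed to expected CpG was 0.898 at downstream summits (0.889 to 0.907) and 0.635 in the upstream windows. A window was CpG rich, with GC content of at least 55% and a ratio of at least 0.65, for 84.6% of downstream peaks (83.0 to 86.0%), 85.9% of TSS-containing peaks and 58.9% of upstream peaks. Only 2 downstream summits had a GC content below 50%.

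GC content was uneven across each TSS. The 200-bp bin that held the summit had more GC than its mirror bin upstream at 88.0% of the TSSs (86.5 to 89.3%), and the most of the 10 bins around the TSS at 43.2%. The input was uneven too. It was higher in the bin of the summit than in the mirror bin at 76.5% (74.7 to 78.3%), and 200 bp at the summit held a median of 22 read ends, against 9 at the mirror position. The part of base composition and of input in where the summits lay was not tested. On the strand of the gene, summit windows held more G than C, with a median skew of 0.065 (0.056 to 0.072), against 0.059 downstream of all coding TSSs.

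Few sequence motifs were more frequent at the summits than upstream of the same TSSs. Of 14 patterns searched in 200-bp windows, 3 had a share whose interval lay above that of the mirror window and 8 one that lay below it. A match is only a match of letters. The ZFX motif AGGCCTNG, on either strand, was in 6.98% of downstream windows (5.95 to 8.12%), 3.83% of mirror windows and 4.40% of windows downstream of all coding TSSs. The 5′ splice site letters GGTAAG, on the sense strand alone, were in 5.94%, against 3.29% in mirror windows and 7.44% downstream of all coding TSSs. In 100-bp windows the intervals of summit and mirror windows overlapped for these letters (2.15 to 3.56% and 1.18 to 2.29%). Runs of G that could form a G-quadruplex, at least 3 in each of 4 runs with 1 to 7 bases between, were in 24.2% (22.5 to 26.1%), against 13.7% and 13.5%. The YY1 motif AANATGGCG, on either strand, was in 1.98% (1.44 to 2.65%), 1.22% (0.803 to 1.76%) and 0.933%, with overlapping intervals for summit and mirror windows, which did not overlap in 500-bp windows (6.96 to 9.27% and 4.33 to 6.23%). In 200-bp windows of TSS-containing peaks the G runs were in 29.96% (27.9 to 32.1%), above the share at downstream peaks. There the ZFX motif was in 5.45%, the splice site letters in 6.66% and the YY1 motif in 2.31%. At upstream peaks these 4 shares were 17.1%, 5.82%, 2.91% and 0.364%.

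The motifs of typical promoter factors were less frequent at the summits than in the mirror windows. The mirror windows lie on the promoter side of the TSS, with a median GC content of 55.5% against 72.5% at the summits. On either strand, the CCAAT box CCAATCA was in 0.630% of downstream windows and 5.18% of mirror windows, the NRF1 motif GCGCATGCG in 0.0450% and 1.04%, the CREB motif TGACGTCA in 0.0900% and 0.810%, and TATAAA in 0.405% and 6.35%. The SP and KLF motif GGGGCGGG was in 10.5% and 14.3%, the ETS motif CCGGAAG in 4.50% and 6.62%, and the E-box CACGTG in 3.29% and 5.54%. For the ETS motif the intervals overlapped in 500-bp windows (14.1 to 17.2% and 15.8 to 18.97%). The low CCAAT box and TATAAA shares were not particular to downstream peaks. They were 0.330% and 0.826% at TSS-containing peaks, and both 0.727% at the 275 upstream peaks. In these 2 classes the SP and KLF motif was in 13.7% and 10.9%, and the ETS motif in 5.51% and 4.73%. The E-box was in 3.63% and 4.73%, the NRF1 motif in 0.275% and 0%, and the CREB motif in 0.165% and 0.364%. Windows downstream of all coding TSSs held the SP and KLF motif in 6.74%, the ETS motif in 3.32% and the E-box in 3.05%. They held the CCAAT box in 1.51%, the NRF1 motif in 0.292%, the CREB motif in 0.232% and TATAAA in 6.29%. These windows are also poorer in GC. Among windows of 70 to 75% GC, the SP and KLF motif was in 9.49% of 590 downstream windows (7.25 to 12.1%). It was in 17.1% of 2653 windows at coding TSSs of genes with no peak (15.7 to 18.6%), some of which overlap each other. For the other motifs, apart from the G runs, the intervals of both sets overlapped. The CCAAT box was in 0.508% and 0.452%, the E-box in 3.90% and 3.62%, the ETS motif in 3.90% and 4.79%, the splice site letters in 5.08% and 5.35%, and the ZFX motif in 7.63% (5.62 to 10.1%) and 5.31% (4.49 to 6.24%). In the same class the G runs were in 22.9% (19.5 to 26.5%) and 29.3% (27.6 to 31.1%), so their higher share at summits was not seen at equal GC content.

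Windows of 30 bases show examples, with the motif in capitals, read on the strand of the gene, so that a match on the other strand appears as its complement. The first 4 are the YY1 matches at the peaks with the highest −log10 q, in genes for the histone chaperone Set, the splicing factors Srsf3 and Srrm1 and the tubulin Tubb4b. The next 2 are ZFX matches in genes for histone H3, and the last 2 are splice site letters, at Cox5a, a subunit of cytochrome c oxidase, and Usp1, a deubiquitinase.
Set, chr2:30066917-30066946: cccggccgcgcCGCCATCTTtcggcccgga
Srsf3, chr17:29032889-29032918: aggggcgccgcCGCCATTTTgtgactttcg
Tubb4b, chr2:25224463-25224492: gccagccggggAAGATGGCGgaagcggccc
Srrm1, chr4:135352847-135352876: gcggtggccggAAAATGGCGgcgggaatgg
Hist2h3b, chr3:96268973-96269002: caggaggcgagCGAGGCCTacctggtgggg
Hist1h3c, chr13:23745189-23745218: caggaggcgagCGAGGCCTaccttgtgggt
Cox5a, chr9:57521403-57521432: agccccgccgccGGTAAGgtccgcgcccgc
Usp1, chr4:98924231-98924260: gggccatgaccgGGTAAGgagcgcccgggg

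Exact Oct4 sites were rare at the summits. The octamer ATGCAAAT, the simple site of Oct4, was in the 200-bp window of 1 downstream peak, at the trace amine receptor gene Taar6, and in 0.900% of mirror windows, which are poorer in GC. In 100-bp windows the intervals overlapped. Among windows of 70 to 75% GC it was in 0 of 590 downstream windows and 3 of 2653 at coding TSSs of genes with no peak. These counts are too small to show whether the shares differ at equal GC content. The MORE, a palindrome of ATGCAT repeated without a gap, to which Oct4 binds as a dimer, was in 0 of 2221 windows, which allows a share of up to 0.135% by a limit of 3 counts and 0.166% by the exact interval, and in 1 mirror window. In 500-bp windows it was in 1 at summits and 1 in mirror windows. Within 1000 bp of the TSSs with a downstream peak there were 2 matches of the MORE, both 1 to 500 bp upstream. The matches inside windows were all the same site, at Zmiz2, which encodes a SUMO ligase and where the summit and mirror windows overlap. It lay at chr11:6389340-6389351, 168.5 bp from the summit and 125.5 bp upstream of the internal TSS nearest to it, in an intron of another transcript, and is shown here in capitals.
Zmiz2, chr11:6389331-6389360: cgcggcgtcATGCATATGCATgagcagcgc

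The 12 genes looked up by name were Pou5f1, 10 from the study's list of genes with a MORE, and Taf12, which its text also names as a MORE gene. Of the 12, 4 had downstream peaks, beside 10.4% of all coding genes, too few to set against that share. The peak at Zmiz2 was weak, with its summit 43 bp from an internal TSS, a fold of 1.73 and a −log10 q of 2.74. At Rras2, a Ras-related GTPase, the summit lay 453 bp from the TSS in the first intron, with a fold of 3.11 and −log10 q of 17.1. At Kdm2b, a demethylase that binds CpG islands, it lay 493 bp from an internal TSS, also in an intron, with 3.01 and 19.98. Pou5f1, which encodes Oct4, had 2 peaks. One lay 347 bp from the TSS at chr17:35506018 with a fold of 1.93 and −log10 q of 3.21, and the other 453 bp from an internal coding TSS with 5.16 and 11.2. The paper, by contrast, describes no HBO1 peak within 2 kb of Pou5f1, its example of an octamer gene. It places the Oct4 site there about 2 kb upstream of the gene, and the distance of these peaks from that site was not measured here. The other 8 genes had none. Of these, Polr2a, which encodes the largest subunit of RNA polymerase II, had a TSS-containing peak and 2 peaks farther inside the gene. Blcap, Ell and Taf12 each had 1 peak over the gene, away from the window downstream of a TSS. No peak in the list overlapped Rras, Fam219a, Ahcy or Tnks1bp1.

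The highest −log10 q values were at genes that encode histones, among them H3 and H4, which HBO1 acetylates. By −log10 q, 8 of the first 10 were at clustered histone genes, led by Hist2h2aa1 with 133 and a fold of 5.94, Hist2h3b with 94.0 and 6.29, Hist1h3c with 89.5 and 7.21, and Hist2h2bb with 88.0 and 14.3. The others were Klf2, with 69.1 and 5.72, and Rpl3, with 61.9 and 18.99. In all, 39 of 66 clustered histone genes had a downstream peak, 59.1%, and 19 a TSS-containing one. Over all coding genes the shares were 10.4% and 8.47%. The downstream peaks of histone genes had a median −log10 q of 36.1, from 5.43 to 133, and a median fold of 4.44. Genes for H3 had a median −log10 q of 56.0 over 9 peaks, those for H4 37.8 over 7, for H2B 35.5 over 11, for H1 26.7 over 3 and for H2A 24.4 over 9. Most have a single short exon, and the median summit distance was 275 bp. Some of these genes are near copies of each other, as the H3 windows above show, and how reads with several matches were placed is not known, so the value of a single copy is uncertain. Many histone genes sit in divergent pairs, and for 26 of the 39 a transcript of any type, coding or not, began on the opposite strand within 1 kb upstream. The median GC content of their 200-bp summit windows was 66.5%. Windows of 100 bases show the summits of leading peaks, all in coding sequence, at 2 histone genes, Rpl3 and Klf2.
Hist2h2aa1, chr3:96245713-96245812: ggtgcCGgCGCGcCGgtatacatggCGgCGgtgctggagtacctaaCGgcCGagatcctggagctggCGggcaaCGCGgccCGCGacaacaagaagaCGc
Hist2h2bb, chr3:96269994-96270093: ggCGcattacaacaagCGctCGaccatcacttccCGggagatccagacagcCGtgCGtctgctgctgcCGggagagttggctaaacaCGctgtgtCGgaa
Rpl3, chr15:80082467-80082566: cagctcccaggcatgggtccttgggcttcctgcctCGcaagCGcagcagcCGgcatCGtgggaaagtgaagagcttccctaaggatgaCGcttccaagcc
Klf2, chr8:72319761-72319860: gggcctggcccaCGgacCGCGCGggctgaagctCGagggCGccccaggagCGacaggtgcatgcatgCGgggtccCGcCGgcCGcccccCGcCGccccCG

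Ribosomal protein genes formed a further strong group. Of 78 such genes, 33 had a downstream peak (42.3%, against 10.4% of all coding genes) and 39 a TSS-containing one. The 37 downstream peaks had a median fold of 3.39 and −log10 q of 15.9, at a median of 318 bp. At Rpl3 the summit lay 889 bp from the TSS, in a later exon, where only 5 input read ends fell in the 1 kb around it. By −log10 q, Rps20 came after Rpl3, with a fold of 4.67 and −log10 q of 52.6, Rps2 with 6.73 and 39.0, Rps23 with 4.57 and 37.6, and Rpl27a with 4.32 and 35.9. Ribosomal protein genes host small nucleolar RNAs in their introns, and 10 downstream peaks overlapped an annotated snoRNA, 9 at ribosomal protein genes and 1 at Rack1, a ribosomal scaffold. Processed pseudogenes resemble their exons, so exonic values are uncertain in the same way as for histones. Without histone and ribosomal protein genes, the other 2145 peaks kept a median distance of 274 bp, with a fold of 2.45 and −log10 q of 7.30. Zinc finger genes of the Zfp series had a downstream peak in 47 of 385, 12.2%, which is near the 10.4% of all coding genes.

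**Figure D4:**
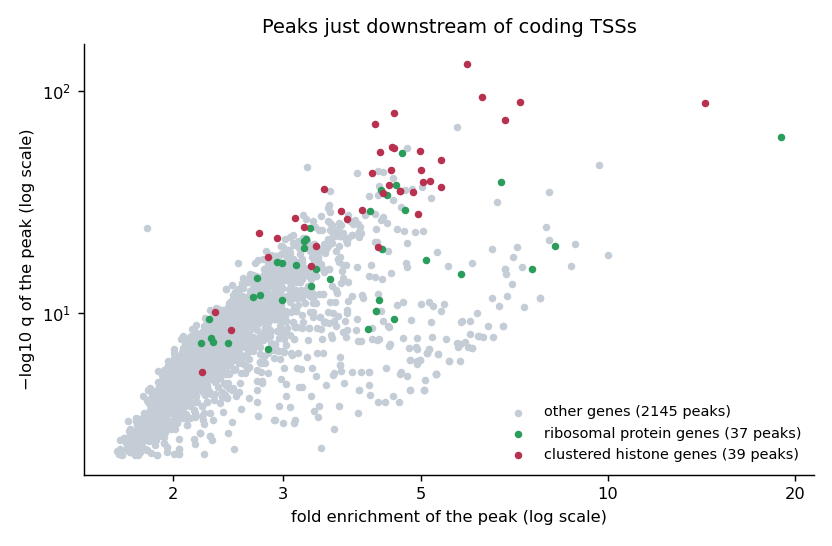
Fold enrichment against −log10 q, both on log scales, for the 2221 downstream peaks, each a point. Peaks at the clustered histone genes (39) and ribosomal protein genes (37) lie toward the upper right, with median −log10 q of 36.1 and 15.9.

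By fold enrichment the leading peaks were Rpl3 and Hist2h2bb, then Gcnt2, a glycosyltransferase, with 9.99, Cd68, a macrophage glycoprotein, with 9.67, Ngdn with 8.87, Trappc13 with 8.71, Rps14 with 8.21, Bag6, a chaperone, with 8.04, Zfp97 with 8.04 and Gm10337 with 7.94. Most of these folds rest on little input. The 1 kb around the summit held 0 input read ends at Gcnt2, 4 at Rps14, 5 at Rpl3, 6 at Trappc13 and 9 at Ngdn. It held 12 at Gm10337, 13 at Zfp97, 23 at Bag6 and 24 at Hist2h2bb. The Gm10337 summit lay outside the 165-bp transcript of its nearest TSS. The summit at Cd68 lay in a later exon, 278 bp from the TSS, with a GC content of 55.5%, 4 CpGs and 26 input read ends in 1 kb. The highest input of any downstream peak, 702 read ends, was at Fcgr3, where the fold was 1.82 and the −log10 q 24.2; this peak was picked after its values were seen.

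Across gene groups, downstream peaks were found at genes that most cells use and at pluripotency genes. The shares below are read against the 10.4% of all coding genes. GC content and input at the starts of the listed genes were not matched to those of other genes, and the part of either was not tested. Of 16 lists, 14 had a share above 10.4%, and the interval lay wholly above it for 12. TSS-containing peaks were at 13.9 to 43.9% of the genes in these 14 lists, against 8.47% of all coding genes. The downstream interval included 10.4% for Wnt signalling, with 5 of 33 genes, led by Gsk3a, the target of CHIR99021, with a fold of 3.98, where 13 of 33 (39.4%) had a TSS-containing peak, and for mitochondrial respiration, with 8 of 36, led by Cox5a with 3.82.

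Among chromatin regulators, 14 of 34 histone methylation genes had a downstream peak, 41.2% (24.6 to 59.3%). They included Kdm2b, the methyltransferase Setd2 with a fold of 2.88 and −log10 q of 18.3, the demethylase Kdm5b with 2.79 and 17.6, and Eed, of the Polycomb complex PRC2, with 3.21 and 15.4. Its partners Suz12 and Ezh2 were also members, with 2.59 and 2.61. Of 32 chromatin remodelling genes 12 were members, led by Smarcd2, a BAF subunit, with 4.22 and 28.0, Gatad2a of NuRD with 3.98 and 22.1, and the ATPase Smarca5 with 3.55 and 21.5.

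Of 35 histone acetylation and deacetylation genes, 11 had a downstream peak, 31.4% (16.9 to 49.3%). The deacetylase Sirt1 led with a fold of 2.91 and −log10 q of 16.6. Jade1, the scaffold of the HBO1 complex that gives the study its title, had 2 peaks. One lay in the first intron, 345 bp from its TSS, with 4.48 and 15.2. The other lay 158 bp from an internal TSS, in coding sequence, with 5.39 and 10.2, where the input held 14 read ends in 1 kb. Kat6b, a further MYST acetyltransferase, had a peak in its first intron with a fold of 7.01 and −log10 q of 13.6, where the input held only 4 read ends in 1 kb. How reads with several matches were placed is not known here either, so the value at Kat6b is uncertain. The corepressor Sin3a followed with 2.99 and 13.0. The summit windows at Jade1 and Kat6b are shown since they depart from the usual composition, with 6 CpGs in the intron of Jade1 and 0 at Kat6b.
Jade1, chr3:41556055-41556154: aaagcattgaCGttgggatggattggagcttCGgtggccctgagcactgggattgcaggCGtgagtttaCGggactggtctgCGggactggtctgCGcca
Kat6b, chr14:21482245-21482344: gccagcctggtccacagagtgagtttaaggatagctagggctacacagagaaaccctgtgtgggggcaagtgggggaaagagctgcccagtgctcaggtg

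Among pluripotency factors 13 of 37 genes had a downstream peak, 35.1% (20.2 to 52.5%). Klf2 had the highest −log10 q, in a peak 1415 bp wide, with its summit 778 bp from the TSS in a later exon. Fgf4, the growth factor that drives ERK signalling in ESCs, had a fold of 3.27 and −log10 q of 26.5 with its summit at 199 bp in the first exon. At Tdgf1, a Nodal coreceptor, the summit lay in the first intron at 461 bp, with 7.15 and 19.8 and 14 input read ends in 1 kb. Its window had only 47.5% GC and also held TATAAA. Nr5a2, a nuclear receptor, had 4.33 and 19.4.

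In gene expression and growth lists the pattern was similar. The ubiquitin and proteasome list had 14 of 33 (42.4%), with Ube2c at a fold of 4.23 and −log10 q of 24.1, and 9 of 33 at a −log10 q of at least 5. Nuclear pore and transport genes had 14 of 36 (38.9%), led by Nup205 with 3.66 and 19.1. Translation genes had 11 of 35 (31.4%), led by Eif4a1 with 3.95 and 42.6 and Npm1, which encodes nucleophosmin, with 4.28 and 37.4. RNA splicing genes had 11 of 41 (26.8%), led by Hnrnpu with 4.34 and 43.1, and 18 had a TSS-containing peak. ERK signalling genes had 11 of 38 (28.9%), led by Grb2 with 2.92 and 18.1, followed by Rras2, and DNA replication and repair genes 10 of 39 (25.6%). Cell cycle genes had 9 of 40 (22.5%), led by Cdkn1a, which had 2 peaks with 4.27 and 4.32. Transcription genes had 11 of 50 (22.0%), led by Gtf2a1, a subunit of TFIIA, with 5.02 and 37.2, and 6 of 50 (12.0%) at a −log10 q of at least 5. The interval of that share, 4.53 to 24.3%, includes the 7.85% of all coding genes at this limit, so for this list it lay wholly above the share of all genes only with the weaker peaks counted. Mitochondrial respiration moved the other way, with 7 of 36 at this limit (8.19 to 36.0%), and the intervals of 12 lists again lay wholly above the share of all genes.

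In the last 2 lists, of 48 developmental transcription factors and 40 tissue-restricted genes, 0 had a downstream peak. A limit of 3 counts allows shares of up to 6.25% and 7.50%, and the exact intervals end at 7.40% and 8.81%. Tissue-restricted genes outside the lists did have peaks, as at Cd68 and Taar6. So did transcription factor genes with roles in development, as at Nfib, with a −log10 q of 12.9. Otx2, counted among the pluripotency factors, had a downstream peak with 3.99 and is named after its values were seen. In each list 1 gene had a TSS-containing peak, and 2 of the tissue-restricted genes had an upstream peak.

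**Figure D5:**
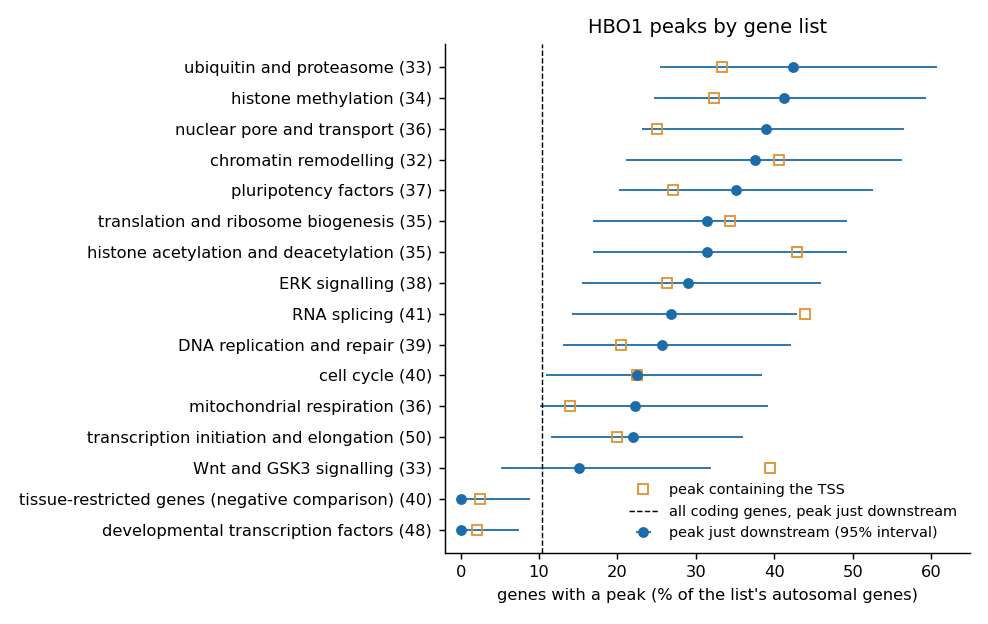
Percentage of the autosomal genes of each list (number in parentheses) with a downstream peak (filled circles, with exact 95% intervals) or a TSS-containing peak (open squares). The dashed line marks 10.4%, the share of all coding genes with a downstream peak, and 14 of the 16 circles lie above it.

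A few genes held several downstream peaks. There were 61 genes with at least 2 and 3 with at least 3, and at a single TSS the most was 2. Among the single TSSs with 2 downstream peaks, the highest −log10 q was at Zfp91, with summits at 222 and 917 bp, followed by Rpl23a, at 231 and 688 bp, Rpl6, at 460 and 994 bp, the transcription factor gene Nfib, at 268 and 878 bp, and Bcat1, a transaminase, at 200 and 953 bp. At Bcat1 the farther peak had a fold of 6.21 and the nearer 3.10, at Zfp91 3.51 and 3.33. Other transcripts also began within these peaks. A start of a transcript annotated as a type other than protein-coding lay inside 484 of them, 21.8% (20.1 to 23.6%), mostly of the same gene (386). This was so for 44.7% of the wider TSS-containing peaks and 12.4% of upstream peaks. For 18.9% a transcript of any type, coding or not, began on the opposite strand within 1 kb upstream of the TSS, and for TSS-containing peaks 18.8%.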

How the data were processed

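HBO1 ChIP-seq and input chromatin were from Oct1 deficient mouse ESCs. Per the methods, Novoalign 4.03.01 placed the paired reads on mm10, and the authors ran Macs2 with a q of 0.005 and a max-gap of 100. In the deposited list, each peak has the fold enrichment (a ratio to local background), the −log10 q and the summit offset that Macs2 gave. The deposited input lists aligned read ends, each with the mapping quality score of the aligner, and is not normalized. Removal of duplicate or multimapped reads is not given in the sources used here. The 1 list is taken as that of both ChIP samples, whose manner of combination is not given in these sources, and 0 columns belonged to samples of another series. No file held replicate values, so no p-value was computed.

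Coding TSSs came from GENCODE vM21 and sequence from GRCm38, the assembly that mm10 names. Peaks on X and Y and those with a summit in the chromosome 3 segment described above were left out. The distance ran from the nearest coding TSS to the summit, along the strand of the gene. An upstream peak met the mirror image of the rule. The place of a summit was set over all overlapping transcripts, in the order 5′ UTR, CDS, 3′ UTR, other exon, intron. Windows of 200 bp were centered on summits, and for all coding TSSs at 274 bp downstream. Each input read end counted at its midpoint. A share of 0 is also given the limit of 3 counts. Shares have exact Clopper-Pearson 95% intervals and medians have order-statistic 95% intervals. Both cover counting error only, and PCR reads without molecular identifiers are not independent molecules. The interval of the fold ratio divides the opposite bounds of both medians. Classification and intervals were tested on simulated data.

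The members and gene lists were chosen with earlier results of these data known. The genes named are the 10 peaks of highest fold enrichment, the 10 with the highest −log10 q, up to 4 peaks per list by −log10 q, 12 genes looked up by name, the TSSs with the most peaks, the peaks nearest the limits of the rule, and 2 peaks per motif. Sequences of 100 bases are from windows that touch no UTR. Which windows are shown, with further YY1 matches and the splice site examples, was chosen after values were seen. Some genes that this rule names are not reported here. Histone, ribosomal protein, Zfp and snoRNA genes were added after values were seen. Other thresholds, TSS sets, windows and input limits were tried as alternatives. Python 3.11.15, numpy 2.4.6, scipy 1.17.1, pandas 2.3.3 and matplotlib 3.10.9 were used.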

Additional observations from a re-analysis of the deposited data

How the results depend on the processing

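No paired analysis was possible because the single peak list used here gives no values per ChIP sample, and for the same reason no replicate was left out. The count of 2221 downstream peaks was 656 with −log10 q limited to 10 or more, 1124 when a peak edge within 100 bp of the TSS counted as containing it, and 1461 with at most 100 input read ends per kb, all fewer by construction. Of the other differences here the cause was not tested. With 1 TSS per gene it was 2711, of which 1902 were among the 2221. Limits of 5 and 10 on the −log10 q moved the median distance of 274 bp to 282 and 296 bp. It was 342 bp from the peak center, 313 bp with 1 TSS per gene and 371 bp with the 100-bp margin. The intron share of 41.5% was 44.2% with −log10 q limited to 10 or more, 51.2% from the center, 38.6% with 1 TSS per gene, 46.4% with the margin and 51.6% by the transcript of the nearest TSS alone. The downstream share of 88.98% was 91.2% with −log10 q limited to 10 or more, 90.4% with basic transcripts, 91.7% with 1 TSS per gene, 83.9% with the margin and 86.8% at low input. The fold ratio of 0.925 left its interval once, with −log10 q limited to 10 or more, with 0.971, whose interval of 0.929 to 1.004 reaches 1. Median GC content of 72.5% was 73.0% with −log10 q limited to 10 or more, with 1 TSS per gene and in 100-bp windows, 70.5% at the center, 71.5% with the margin, 70% at low input and 69.6% in 500-bp windows. Patterns above their mirror windows numbered 2 in 100-bp windows, without the splice site letters, and 4 in 500-bp windows, with YY1 added. Those below were 8 at 200 bp, 7 in 100-bp windows, without the octamer, and 8 in 500-bp windows, without ETS and with ZNF143 added. Further, 14 lists stayed above the share of all genes with −log10 q limited to 5 or more, which is 7.85% there. No value reversed. ChIP read counts were not measured here, so the counting error of each fold enrichment is not given.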
